A study of Mus musculus with 24 samples.

Results

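The 10 genes described here encode transcription factors and cofactors known from the development of conventional dendritic cells (cDCs) and plasmacytoid dendritic cells (pDCs): Batf3, Batf, Nfil3, Zbtb46, Bcl11a, Bcl6, Spib, Spi1, Runx2 and Cbfa2t3. They were taken as a named list from the 24421 gene symbols counted in each library, and all 10 passed the filter on low counts. RNA had been sequenced from cDC2 and cDC1 sorted from the spleens of untreated C57Bl/6 mice aged 6 to 12 weeks, and the series title names repression of Id2 by the transcription factor Zeb2 in dendritic cell development. In the transgene line, CD11c-driven Cre (CD11cCRExR26-Zeb2Tg/Tg) activated a transgenic Zeb2 copy at Rosa26, and their Cre-negative controls (R26-Zeb2Tg/Tg) carried the same silent transgene. In the deletion line, Cre-positive mice (CD11cCRExZeb2fl/fl) lost floxed Zeb2, and their Cre-negative controls (Zeb2fl/fl) carried the intact floxed alleles. Cre was driven by CD11c in both lines, so recombination was not limited to one subset. No group carried Cre without the transgene or the floxed alleles. An effect of Cre itself thus cannot be told apart from that of the transgene or the deletion. Each of the 2 subsets in each of the 2 lines gave 4 Cre-positive and 2 Cre-negative libraries, which makes 8 groups and 24 libraries. No label ties a replicate to its own mouse, so the p-values speak only of the spread between libraries, which may in part be technical.

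Dendritic cell subsets are known to be set up by transcription factors that act in networks and restrain one another. cDC1, which present material from dead cells to CD8 T cells, are known to need Nfil3, Id2, Irf8 and Batf3, where Batf3 pairs with Jun proteins and, together with Irf8, keeps Irf8 active. pDCs, the main source of type I interferon, rest on the E protein Tcf4 together with Bcl11a, Runx2, Spib and Cbfa2t3. Zbtb46 is a repressor that marks the committed cDC lineage, and PU.1, the product of Spi1, acts at the root of the whole myeloid branch.

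Sequence around the annotated start is shown for the 3 genes on which the results below turn: Zbtb46 and Batf, which passed the test under the transgene in cDC1, and Spib, which differed most between the subsets. Each line holds 250 bases before to 50 bases after a RefSeq start on GRCm38.p6, on the strand of the gene, from the table that matched 9 of the 10 genes. The Zbtb46 window lies at chr2:181424339-181424638 on the minus strand, the Batf window at chr12:85686470-85686769 on the plus strand and the Spib window at chr7:44532022-44532321 on the minus strand. Capitals mark CACCTG, the core of the E-box that ZEB factors are known to bind.
Zbtb46: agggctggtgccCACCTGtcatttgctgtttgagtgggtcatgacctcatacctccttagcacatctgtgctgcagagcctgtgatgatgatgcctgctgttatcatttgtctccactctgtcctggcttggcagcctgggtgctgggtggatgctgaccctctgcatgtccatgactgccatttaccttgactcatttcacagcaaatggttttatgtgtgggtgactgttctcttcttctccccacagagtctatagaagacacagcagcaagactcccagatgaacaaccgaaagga
Batf: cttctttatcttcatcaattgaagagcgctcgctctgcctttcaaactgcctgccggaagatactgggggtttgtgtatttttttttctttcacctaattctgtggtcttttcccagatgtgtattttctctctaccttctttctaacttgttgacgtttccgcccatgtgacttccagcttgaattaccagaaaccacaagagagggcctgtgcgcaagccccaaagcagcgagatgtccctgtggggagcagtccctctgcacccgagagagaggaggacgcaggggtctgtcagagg
Spib: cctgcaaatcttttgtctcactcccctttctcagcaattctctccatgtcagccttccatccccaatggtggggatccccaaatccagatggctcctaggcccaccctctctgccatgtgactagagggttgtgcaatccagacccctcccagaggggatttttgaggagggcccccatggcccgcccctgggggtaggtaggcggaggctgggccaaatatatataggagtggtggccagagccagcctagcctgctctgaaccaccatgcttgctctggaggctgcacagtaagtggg
The start used for Zbtb46 lies 35038 bases inside the gene as GENCODE outlines it, against 51 bases for Batf and 0 for Spib, so the Zbtb46 window belongs to an internal start. In GENCODE that start is the border of a later exon in 4 Zbtb46 transcripts and of the first exon in 1, so the letters before it are intron in most of these models and the window may not be a promoter. CACCTG stood on the gene's strand 238 bases before that start in Zbtb46 and in neither of the other windows. Searched on both strands, it occurred in 2 of the 11 windows of these genes, the other being the second Cbfa2t3 window, and in 20.2% of 32851 RefSeq windows of the same length. The PU-box core GAGGAA was found in 3 of the 11 windows (Batf3, Bcl6 and the first Cbfa2t3 window) and in 28.3% of all windows. The AP-1 motif TGANTCA was found in 1 of the 11, in Zbtb46 at 61 bases before the start, and in 7.81% of all. The NFIL3 type motif TTANNTAA was found in 0 of the 11 and in 6% of all. These matches describe letters only, since no binding was measured.

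Library totals ran between 21972763 and 36094786 counts, and 13166 genes were tested. Expression is given as CPM, counts scaled to library size after normalisation by the trimmed mean of M-values (TMM). The labelled subsets bore their markers in sum: 9 cDC2 markers summed to 2730 to 3740 CPM in cDC2 libraries and 257 to 783 CPM in cDC1 libraries, and 7 cDC1 markers to 565 to 1080 CPM in cDC2 libraries and 3410 to 6490 CPM in cDC1 libraries. Gene by gene in control cDC2 against control cDC1, 8 of the 9 cDC2 markers were higher and 1 was lower. All 7 cDC1 markers were lower, where 53.4% of all tested genes passed. Zeb2 checked the labels in 2 of the 4 Cre comparisons, with a log2 fold change of 3.96 in cDC1 of the transgene line with Cre (edgeR adjusted p = 3.88e-07) and of -2.11 in cDC2 of the deletion line with Cre (edgeR adjusted p = 5.13e-05). In the other 2 it did not pass. Zeb2 held 151, 152, 148 and 159 CPM in transgene-line cDC2 with Cre and 104 CPM in both libraries without it (log2 fold change 0.56, edgeR adjusted p = 0.618). In cDC1 of the deletion line its Cre-positive libraries, at 0.457 to 2.67 CPM, spanned the controls at 0.488 and 2.56 CPM, so Zeb2 checks no label there. The p-values called edgeR adjusted p here come from edgeR's quasi-likelihood test on the counts of all 13166 genes with Benjamini-Hochberg adjustment, and a gene passed under 0.05. In bulk RNA, fewer cells carrying a transcript and less transcript per cell cannot be told apart.

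The subsets were first compared without Cre, in 4 control libraries of cDC2 and 4 of cDC1 over both lines. Spib, Runx2, Bcl11a, Spi1 and Bcl6 were higher in cDC2 and Batf3, Batf and Zbtb46 were lower, so 8 of the 10 genes passed, where 53.4% of all tested genes did, 27.6% higher and 25.8% lower. The median log2 fold change (cDC2 over cDC1) was 0.30 over the 10 genes and 0.05 over all tested genes. The libraries of the 2 subsets did not overlap for 5 of the 10 (Spib, Runx2 and Bcl11a higher, Batf3 and Batf lower), against 45.9% of all genes. Across all 24 libraries, whatever the line and Cre, the 12 of cDC2 and the 12 of cDC1 still separated for Spib, Runx2, Bcl11a and Batf3, which 24.5% of all genes did.

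Spib, an ETS factor close to PU.1 that is known from pDCs and B cells, differed most. Control cDC2 held 136 and 159 CPM in the transgene line and 170 and 113 CPM in the deletion line, against 4.62 and 3.69 CPM and 2.44 and 4.96 CPM in control cDC1. No cDC1 library of any group came above 18.4 CPM, and no cDC2 library below 113 CPM. The mean was 145 ± 25.4 CPM in control cDC2 and 3.93 ± 1.13 CPM in control cDC1 (SD, n = 4 each), a log2 fold change of 5.21 (SE 0.41, edgeR adjusted p = 2.08e-10) or 36.9-fold. Genes of other Spib-expressing cells were looked at beside it. The 10 B cell markers summed to 180 to 390 CPM in cDC2 libraries and 24.2 to 90.3 CPM in cDC1 libraries, while among them Pax5, which defines the B lineage, was at most 0.308 CPM in cDC2 and 0.148 CPM in cDC1. The 10 pDC markers summed to 110 to 248 CPM in cDC2 libraries and 68.9 to 131 CPM in cDC1 libraries, with Siglech at 1.28 to 27.1 CPM in cDC2 and 0 to 0.884 CPM in cDC1. Of the B cell markers 4 were higher and 1 lower of 9 tested, and of the pDC markers 6 were higher and 2 lower of 10, where 53.4% of all tested genes passed. Their part in the Spib difference was not tested.

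Runx2 and Bcl11a, both known as pDC factors, were also higher in cDC2. Runx2, a RUNX family factor known from bone and from pDC egress, held 26.4 and 23.8 CPM in control cDC2 of the transgene line and 32.5 and 29.3 CPM in that of the deletion line, against 10.8 and 8.07 CPM and 5.11 and 10.2 CPM in control cDC1. Its log2 fold change was 1.71 (SE 0.18, edgeR adjusted p = 3.21e-08). Bcl11a, a zinc-finger repressor needed for B cells and pDCs, held 234 and 284 CPM and 257 and 236 CPM in control cDC2, against 102 and 109 CPM and 150 and 122 CPM in control cDC1, with a log2 fold change of 1.08 (SE 0.10, edgeR adjusted p = 1.58e-09). In every control cDC2 library both genes stood above every control cDC1 library. Exons of Runx2 share 519 bases with the antisense gene Runx2os1, and those of Bcl11a share 316 bases with 4930538E20Rik. The strand setting of the counting is not given in the sources used here, so reads from such partners cannot be told apart, and the same holds for 295 bases of Cbfa2t3 and 21 bases of Bcl6.

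Batf3, the AP-1 family factor that cDC1 need, went the other way. It held 40.5 and 42.5 CPM and 44.9 and 30.5 CPM in control cDC2, against 64.9 and 84.5 CPM and 71.2 and 76 CPM in control cDC1. With means of 39.6 ± 6.35 CPM in cDC2 and 74.2 ± 8.26 CPM in cDC1 (SD, n = 4 each), the log2 fold change was -0.91 (SE 0.12, edgeR adjusted p = 7.96e-07). Transcripts of this cDC1 factor were thus present in every cDC2 library, at 30.5 CPM or more.

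The other differences between the subsets were small. Spi1, which encodes PU.1, averaged 688 ± 87.6 CPM in control cDC2 and 494 ± 82.7 CPM in control cDC1 (SD, n = 4 each), a log2 fold change of 0.48 (SE 0.10, edgeR adjusted p = 0.000184), and its libraries overlapped. With controls of the transgene line alone the Spi1 log2 fold change was 0.26 (edgeR adjusted p = 0.126). Bcl6, a repressor with a BTB domain known from germinal centres and from cDC1, averaged 182 ± 20.5 CPM in cDC2 and 139 ± 19.8 CPM in cDC1 (log2 fold change 0.39, SE 0.14, edgeR adjusted p = 0.0248). Zbtb46 averaged 163 ± 13.8 CPM in cDC2 and 191 ± 23.3 CPM in cDC1 (log2 fold change -0.23, SE 0.08, edgeR adjusted p = 0.0261). Batf, which can stand in for Batf3 in mouse cDC1, averaged 11.6 ± 0.37 CPM in cDC2 and 14.9 ± 1.16 CPM in cDC1 (log2 fold change -0.35, SE 0.14, edgeR adjusted p = 0.0427). The calls of these last 3 genes were fragile. The Batf call was lost on leaving out any control library other than cDC1 transgene control 1, with edgeR adjusted p up to 0.128. The Bcl6 call was lost without cDC1 transgene control 1, cDC1 deletion control 1, cDC2 transgene control 2 or cDC2 deletion control 1 (edgeR adjusted p up to 0.152). The Zbtb46 call was lost without cDC1 transgene control 2, cDC1 deletion control 1, cDC2 transgene control 1 or cDC2 deletion control 2 (edgeR adjusted p up to 0.182). Zbtb46 also missed the threshold in a fit of the control libraries alone (edgeR adjusted p = 0.0934), and Batf with no filter on low counts (edgeR adjusted p = 0.058). Without cDC1 deletion control 1, 5 of the 10 genes passed. The controls of the transgene line alone gave 4 (Batf3, Bcl11a, Spib and Runx2), and those of the deletion line alone gave 5, Spi1 being the fifth. Fewer of all tested genes also passed with the controls of either line alone than the 53.4% with all controls. The smaller counts were thus not particular to these 10 genes.

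Nfil3 and Cbfa2t3 did not pass between the subsets. Nfil3, a leucine zipper repressor upstream of Id2 in cDC1 progenitors, averaged 76.9 ± 37.4 CPM in control cDC2 and 70.3 ± 20.4 CPM in control cDC1 (SD, n = 4 each). Its log2 fold change of 0.04 had a 95% interval of -0.59 to 0.66 (edgeR adjusted p = 0.934), so a difference of moderate size was not detectable here. Cbfa2t3, the corepressor also called ETO2, averaged 306 ± 42.7 CPM in cDC2 and 266 ± 73.5 CPM in cDC1 (log2 fold change 0.21, interval -0.11 to 0.52, edgeR adjusted p = 0.267). Cbfa2t3 passed without cDC1 transgene control 2 (log2 fold change 0.46, edgeR adjusted p = 0.00807).

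**Figure D1:**
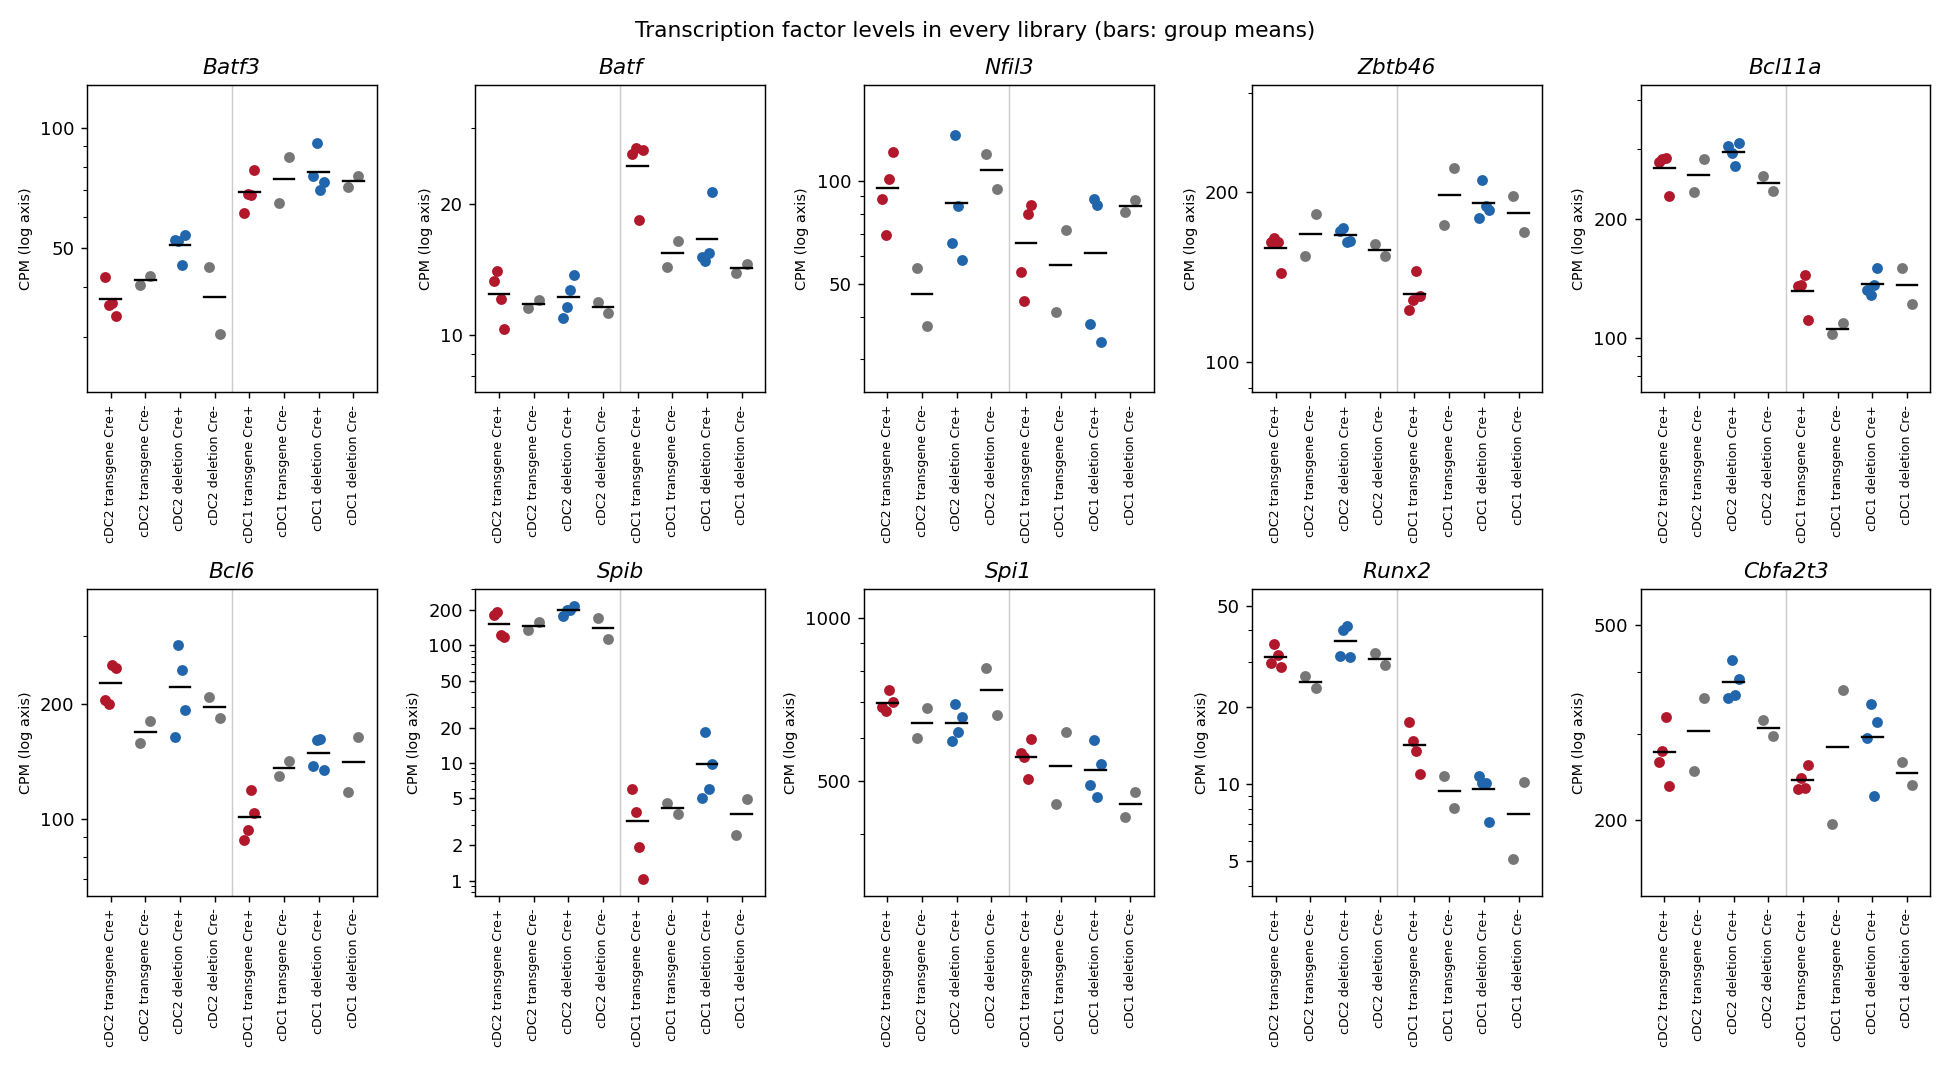
TMM-scaled CPM of each gene (vertical, log axis) in every library, one point per library, with the 4 cDC2 groups left of the grey line and the 4 cDC1 groups right of it; black bars are group means, red and blue are Cre-positive libraries of the transgene and deletion lines, and grey are Cre-negative. Spib, Runx2 and Bcl11a lie higher in all cDC2 libraries than in all cDC1 libraries, and Batf3 lies lower, while Nfil3 spreads widely within groups.

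Levels were set against each other between genes per kilobase of exon, using the union of GENCODE exons. Spi1 was the most abundant of the 10 in both subsets, at 255 CPM per kilobase in control cDC2 and 183 in control cDC1. Spib averaged 50.4 CPM per kilobase in cDC2 and 1.37 in cDC1. Its cDC2 libraries (39.4 to 59.3) overlapped those of Nfil3 (18.6 to 59.2) and Cbfa2t3 (30.1 to 42.3), so no order among these 3 is given. Batf3 averaged 24.8 CPM per kilobase in cDC2 and 46.4 in cDC1. Its cDC1 libraries (40.6 to 52.9) likewise overlapped those of Nfil3 (20.3 to 43.2) and Cbfa2t3 (23.4 to 44). Runx2 had the lowest mean in both subsets, at 3.17 CPM per kilobase in cDC2 and 0.967 in cDC1, and in cDC1 its libraries (0.578 to 1.22) overlapped those of Spib (0.851 to 1.73). In cDC2 there was also overlap between Zbtb46 (18.1 to 21.5) and Bcl11a (17.8 to 21.6).

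**Figure D2:**
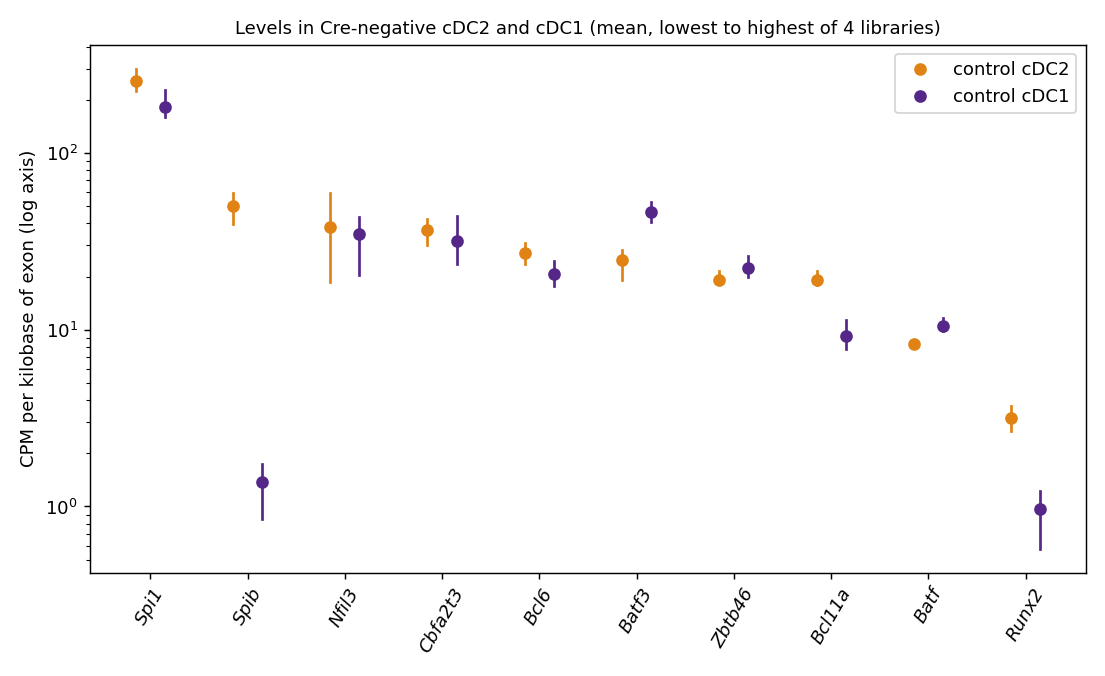
Mean CPM per kilobase of exon (vertical, log axis) of the 10 genes in control cDC2 (orange) and control cDC1 (purple), with lines from the lowest to the highest of 4 libraries. Spi1 stands at the top in both subsets (255 in cDC2 and 183 in cDC1), and Spib averages 50.4 in cDC2 and 1.37 in cDC1.

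Under the Zeb2 transgene in cDC1, Zbtb46 fell and Batf rose. These were 2 of the 10 genes, where 7% of all tested genes passed, 3.58% higher and 3.42% lower. The libraries of the groups did not overlap for 5 of the 10 (Batf, Bcl11a and Runx2 higher, Zbtb46 and Bcl6 lower), against 25.4% of all genes. Zbtb46 stood at 124, 129, 145 and 131 CPM in Cre-positive cDC1, against 175 and 221 CPM in Cre-negative cDC1 of that line. All 4 Cre-positive libraries lay lower than both controls and also lower than every cDC2 and cDC1 library of the deletion line. The log2 fold change was -0.58 (SE 0.10, edgeR adjusted p = 0.000508). Without control replicate 2, which had the 221 CPM, it was -0.40 and missed the threshold (edgeR adjusted p = 0.0656).

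Batf held 26.1, 27, 18.4 and 26.7 CPM in Cre-positive cDC1, against 14.3 and 16.5 CPM in Cre-negative cDC1. Of the Cre-positive libraries, 3 lay close together near 27 CPM, and replicate 3 lay nearer to the controls. The log2 fold change was 0.67 (SE 0.18, edgeR adjusted p = 0.0205), or 1.59-fold higher. The call was lost without control replicate 1 (0.58, edgeR adjusted p = 0.188), control replicate 2 (0.78, edgeR adjusted p = 0.0743) or Cre-positive replicate 2 (0.62, edgeR adjusted p = 0.0507), and in a fit of the 6 libraries compared (0.66, edgeR adjusted p = 0.0844). Batf3 itself, at 61.3, 68.3, 67.9 and 78.7 CPM in Cre-positive and 64.9 and 84.5 CPM in Cre-negative cDC1, did not pass (log2 fold change -0.11, interval -0.41 to 0.18, edgeR adjusted p = 0.725).

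The pDC-associated genes gave no call under the transgene in cDC1. Bcl11a held 135, 136, 144 and 111 CPM in Cre-positive and 102 and 109 CPM in Cre-negative cDC1 (log2 fold change 0.32, interval 0.07 to 0.56, edgeR adjusted p = 0.115), and passed without Cre-positive replicate 4 (edgeR adjusted p = 0.0393). Runx2 held 17.5, 14.7, 13.5 and 11 CPM in Cre-positive and 10.8 and 8.07 CPM in Cre-negative cDC1 (log2 fold change 0.58, interval 0.11 to 1.05, edgeR adjusted p = 0.134). Both were narrowly separated from their controls. Spib stayed at the low cDC1 level, at 5.97, 3.81, 1.94 and 1.04 CPM in Cre-positive and 4.62 and 3.69 CPM in Cre-negative cDC1 (log2 fold change -0.41, interval -1.49 to 0.67, edgeR adjusted p = 0.728). Bcl6 held 88.6, 93.6, 119 and 104 CPM in Cre-positive and 130 and 142 CPM in Cre-negative cDC1 (log2 fold change -0.43, interval -0.79 to -0.07, edgeR adjusted p = 0.153). Spi1 (log2 fold change 0.06, interval -0.19 to 0.30), Nfil3 (0.22, -0.56 to 1.00) and Cbfa2t3 (-0.22, -0.60 to 0.16) had edgeR adjusted p of 0.562 or more.

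Markers of other cells moved in the same libraries. In Cre-positive against Cre-negative cDC1 of the transgene line, the 9 cDC2 markers summed to 501 to 783 CPM against 257 to 278 CPM. The 7 cDC1 markers summed to 3410 to 4280 CPM in Cre-positive and 5290 to 6490 CPM in Cre-negative cDC1. The 10 red pulp macrophage markers summed to 265 to 497 CPM in Cre-positive and 171 to 206 CPM in Cre-negative cDC1, and the 10 monocyte markers to 759 to 828 CPM in Cre-positive and 559 to 729 CPM in Cre-negative cDC1. The 10 pDC markers summed to 68.9 to 84.4 CPM in Cre-positive and 107 to 110 CPM in Cre-negative cDC1. Of the markers, 7 of 9 for cDC2, 3 of 10 for red pulp macrophages and 3 of 10 for monocytes rose, and 4 of 7 for cDC1 and 2 of 10 for pDCs fell, where 7% of all tested genes passed. Their part in the Zbtb46 and Batf results was not tested.

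In cDC2 with the transgene, 0 of the 10 genes passed edgeR's test and 0 passed DESeq2. Over all 13166 genes, 0.327% passed edgeR's test and 119 genes passed DESeq2. At an unadjusted p under 0.05 there were 2, Nfil3 and Bcl6, against 8.69% of all genes. Nfil3 held 88.4, 69.2, 101 and 121 CPM in Cre-positive cDC2, against 55.4 and 37.6 CPM in Cre-negative cDC2 (log2 fold change 1.03, interval 0.23 to 1.83, edgeR adjusted p = 0.404). The controls of that group were the lowest of all for Nfil3, at a mean of 46.5 CPM, against 107 CPM in control cDC2 of the deletion line. That difference between the lines (log2 fold change -1.21, edgeR adjusted p = 0.434) passed in a fit of the 4 control libraries of cDC2 alone (edgeR adjusted p = 0.0291). Bcl6 held 204, 200, 252 and 248 CPM in Cre-positive and 158 and 180 CPM in Cre-negative cDC2 (log2 fold change 0.42, interval 0.05 to 0.79, edgeR adjusted p = 0.473). Runx2, at 29.9, 35.5, 31.9 and 28.8 CPM against 26.4 and 23.8 CPM, was the third gene whose libraries did not overlap, and such a lack of overlap was seen for 20.9% of all genes. Zbtb46, at 163, 166, 163 and 144 CPM in Cre-positive and 154 and 183 CPM in Cre-negative cDC2, overlapped (log2 fold change -0.08, interval -0.29 to 0.13, edgeR adjusted p = 0.9).

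Whether the transgene acted differently in cDC2 and cDC1 was tested as the difference of the Cre effects (cDC2 minus cDC1). None of the 10 passed edgeR's test (0 of 10), where 2.01% of all genes did, and 3 of the 10 had an unadjusted p under 0.05, against 13% of all. For Bcl6 the difference was 0.85 (SE 0.25, edgeR adjusted p = 0.0828), the effect being 0.42 in cDC2 and -0.43 in cDC1. For Zbtb46 it was 0.50 (SE 0.14, edgeR adjusted p = 0.0764), and for Batf -0.59 (SE 0.25, edgeR adjusted p = 0.284). Bcl6 and Zbtb46 both passed with DESeq2 (adjusted p = 0.0265 and 0.0225), where 475 of all genes passed. They also passed in an edgeR fit that paired same-numbered libraries (edgeR adjusted p = 0.0133 and 0.0348), where 400 of all genes passed. These 2 differences thus lay near the threshold.

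**Figure D3:**
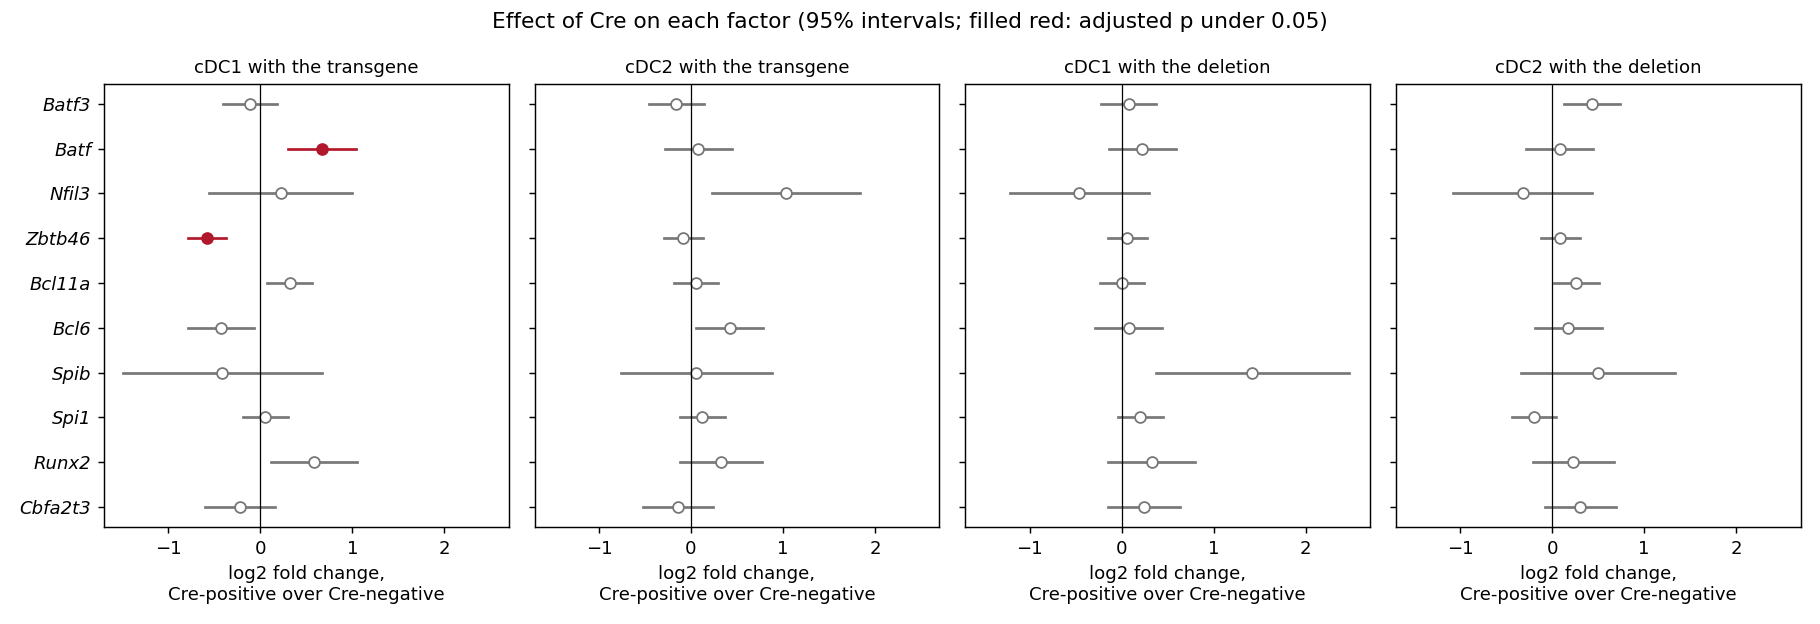
Log2 fold change of Cre-positive over Cre-negative libraries for each gene (horizontal) with 95% intervals, in the 4 Cre comparisons; filled red points passed edgeR's adjusted test. Filled points occur in cDC1 with the transgene, where Zbtb46 stands at -0.58 and Batf at 0.67, and the intervals of Nfil3 and Spib are the widest.

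Deletion of Zeb2 gave no call for these genes in either subset. In cDC2, 0 of the 10 passed edgeR's test and 0 passed DESeq2, where 5.21% of all genes passed edgeR's test. At an unadjusted p under 0.05 there were 2, Batf3 and Bcl11a, against 17.8% of all. Batf3 held 52.3, 52, 45.5 and 53.8 CPM in Cre-positive cDC2, against 44.9 and 30.5 CPM in Cre-negative cDC2. Every Cre-positive library lay above both controls, one of which was far below the other. The log2 fold change was 0.43 (SE 0.15, edgeR adjusted p = 0.099). Without control replicate 1 it was 0.74 and passed (edgeR adjusted p = 0.0438), and without control replicate 2 it was 0.18. Cre-positive cDC2 of that line, at a mean of 50.9 ± 3.67 CPM, still lay below the lowest cDC1 library at 61.3 CPM.

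Bcl11a held 306, 294, 273 and 312 CPM in Cre-positive and 257 and 236 CPM in Cre-negative cDC2 (log2 fold change 0.26, interval 0.02 to 0.51, edgeR adjusted p = 0.224). Spib held 179, 202, 201 and 217 CPM in Cre-positive and 170 and 113 CPM in Cre-negative cDC2 (log2 fold change 0.50, interval -0.34 to 1.33, edgeR adjusted p = 0.584). Cbfa2t3 held 354, 423, 360 and 388 CPM in Cre-positive and 320 and 296 CPM in Cre-negative cDC2 (log2 fold change 0.31, interval -0.08 to 0.70, edgeR adjusted p = 0.43). With Batf3 and Zbtb46, these made 5 genes whose Cre-positive libraries all lay higher, against 27.1% of all genes whose libraries did not overlap. In these libraries the B cell markers summed to 298 to 390 CPM in Cre-positive and 201 to 209 CPM in Cre-negative cDC2, with Ms4a1 at 163 to 212 CPM against 12.1 and 22.5 CPM. The monocyte markers summed to 1440 to 1780 CPM in Cre-positive and 3340 to 4010 CPM in Cre-negative cDC2. Of the B cell markers 2 of 9 tested rose, and of the monocyte markers 5 of 10 fell, against 5.21% of all genes. Their part in the values of Bcl11a, Spib and Batf3 was not tested.

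In cDC1 with the deletion, where Zeb2 is low even without Cre, 0 of the 10 passed edgeR's test and 0 passed DESeq2. Over all 13166 genes, 0.0228% passed edgeR's test and 7 genes passed DESeq2. Spib was the 1 gene with an unadjusted p under 0.05, against 4.81% of all genes. It held 5.03, 18.4, 6 and 9.87 CPM in Cre-positive cDC1, against 2.44 and 4.96 CPM in Cre-negative cDC1 (log2 fold change 1.42, interval 0.37 to 2.47, edgeR adjusted p = 0.963). Replicate 2 accounted for the top of that range and all Cre-positive libraries lay above the controls, the nearest by a margin of 5.03 against 4.96 CPM. Batf was the other gene without overlap, at 15.1, 14.8, 15.4 and 21.4 CPM in Cre-positive and 13.9 and 14.6 CPM in Cre-negative cDC1, and 11.7% of all genes showed none. The difference of the deletion effects (cDC2 minus cDC1) passed for 0 of the 10 with edgeR and with DESeq2. Over all genes, 1.08% passed edgeR's test and 336 genes passed DESeq2. The 1 gene with an unadjusted p under 0.05, against 13.6% of all, was Spi1 at -0.40 (SE 0.16, edgeR adjusted p = 0.274). Spi1 held 593, 694, 617 and 656 CPM in Cre-positive and 809 and 661 CPM in Cre-negative cDC2, and 492, 595, 468 and 538 CPM in Cre-positive and 430 and 478 CPM in Cre-negative cDC1. Controls of the transgene line set against those of the deletion line gave 0 calls among the 10 in cDC1 (0.129% of all genes) and in cDC2 (0.137%). With an unadjusted p under 0.05 there was 1 in each, Bcl11a in cDC1 (log2 fold change -0.37, edgeR adjusted p = 0.532; 7.2% of all genes) and Nfil3 in cDC2 (9.14%).

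Over the 8 groups, the levels fell into steps for some genes and not for others. Bcl11a descended over the group means of 296, 269, 259 and 247 CPM in cDC2 (deletion Cre-positive, transgene Cre-positive, transgene Cre-negative and deletion Cre-negative), each overlapping the next, to 136 CPM in the highest cDC1 group. Runx2 had means of 25.1 to 36.3 CPM in the cDC2 groups, then 14.2 CPM in cDC1 of the transgene line with Cre, whose libraries overlapped neither the cDC2 groups nor the next group, Cre-positive cDC1 of the deletion line at 9.56 CPM. Zbtb46 had 7 groups with means between 158 and 198 CPM, each overlapping the next, and Cre-positive cDC1 of the transgene line came last at 132 CPM. Its libraries overlapped those of none of the cDC1 groups, but reached into Cre-positive cDC2 of the transgene line through 1 library of each, at 145 CPM in cDC1 and 144 CPM in cDC2. Batf had Cre-positive cDC1 of the transgene line at the top with 24.6 CPM, then 16.7 CPM in Cre-positive cDC1 of the deletion line, and these overlapped through 1 library of each. For Nfil3 every group overlapped its neighbour, between 46.5 and 107 CPM. Spi1 also showed overlap between all neighbours, between 454 and 735 CPM.

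Replicates within a group differed most for Spib and Nfil3, with a mean range within the Cre-positive groups of 1.34 and 1.08 on the log2 scale. Zbtb46 varied least, at 0.185, and 4.7% of all tested genes varied less. The departures of Nfil3 and Bcl6 ran in parallel in the 2 subsets. In all 8 of the 8 pairs of Cre-positive cDC2 and cDC1 libraries with the same replicate number, both libraries lay on the same side of their group mean on the log2 scale for Nfil3, and likewise for Bcl6, against 2.51% of all genes. Bcl11a and Spib did so in 7 of 8 pairs, and 9.56% of all genes did so in 7 or more. In the deletion line, Nfil3 was at 136 and 84.5 CPM in cDC2 replicates 2 and 3 and at 65.7 and 58.4 CPM in replicates 1 and 4, while cDC1 held 88.4 and 84.9 CPM in replicates 2 and 3 and 38 and 33.7 CPM in replicates 1 and 4. The labels do not say what libraries with the same number share. Dbp and Tef, leucine zipper activators that compete with NFIL3 for its motif and oscillate with the circadian clock, were measured beside it. Tef held 31.5 to 47.7 CPM in cDC2 libraries and 8.81 to 15.3 CPM in cDC1 libraries, and Dbp 6.06 to 12.4 CPM in cDC2 and 1.16 to 2.5 CPM in cDC1. In Cre-positive replicates 1 to 4 of the deletion line, Tef held 36.5, 47.7, 43.4 and 35 CPM in cDC2. In cDC1 of those replicates it held 10.9, 12, 8.95 and 10.9 CPM. Dbp held 9.89, 12.4, 10.6 and 10.1 CPM in that cDC2 and 1.79, 2.5, 1.72 and 1.34 CPM in that cDC1. A link between these genes and the departures of Nfil3 was not tested.

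**Figure D4:**
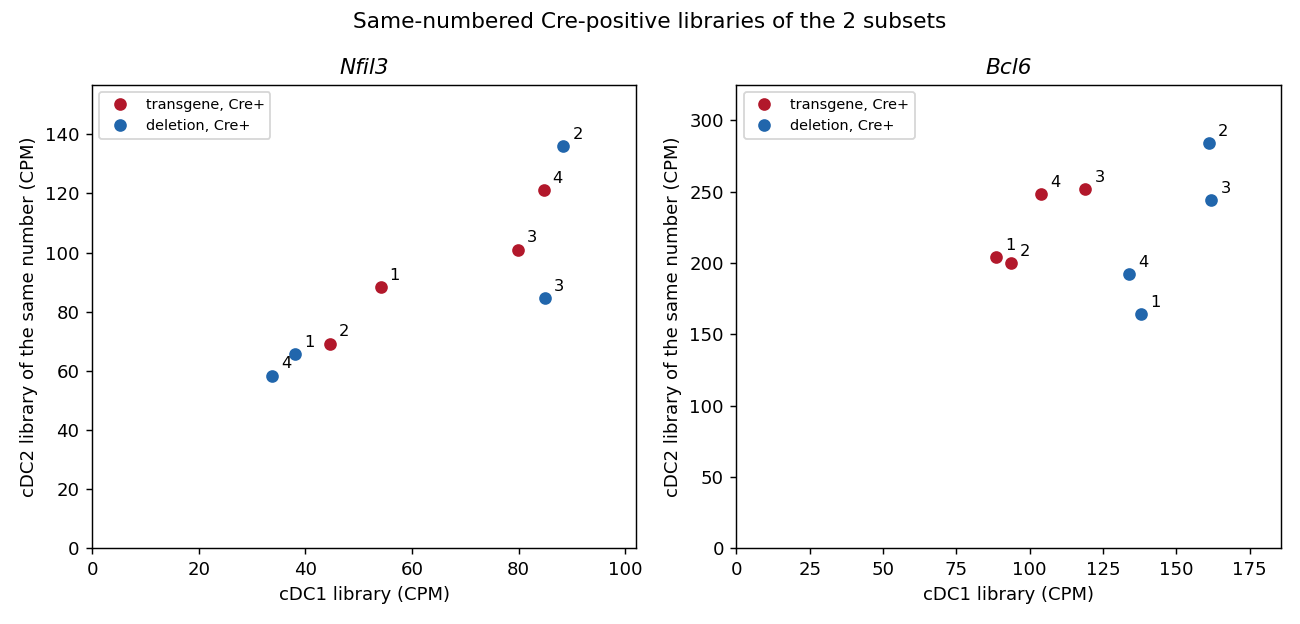
CPM of Nfil3 and Bcl6 in each Cre-positive cDC2 library (vertical) against the cDC1 library with the same replicate number and line (horizontal); red is the transgene line, blue the deletion line, and digits are replicate numbers. Within each line, libraries high in cDC1 are high in cDC2, as for Nfil3 replicate 2 of the deletion line at 136 CPM in cDC2 and 88.4 CPM in cDC1.

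Genes with a pattern most like that of Spib and Runx2 were sought among 9565 genes by the root mean square difference of centred log2 group means over the 8 groups. Only these 2 of the 10 genes had a range over the groups of at least 2 on the log2 scale, the minimum set for this search. The nearest to Spib was Tcf7 (difference 0.441), which averaged 58.2 to 93.8 CPM in the cDC2 groups and 1.62 to 5.42 CPM in the cDC1 groups, followed by Ace (0.484). The nearest to Runx2 was Pbx2 (0.111), at 24.1 to 27.6 CPM in the cDC2 groups and 12.2 CPM in cDC1 of the transgene line with Cre, where the other cDC1 groups had 6.76 to 8.19 CPM. Tfeb came next (0.156).

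Genes that work with these factors, or that they act on, were counted from 7 lists by role. Between the control subsets 53.4% of all tested genes passed, 27.6% higher and 25.8% lower. In control cDC2 against control cDC1, 10 of 16 AP-1 and related leucine zipper factors were higher and 1 lower (median log2 fold change 0.91), among them Bach1 (66 against 24.3 CPM, log2 fold change 1.43, edgeR adjusted p = 1.58e-09). Of 11 ETS factors and Cbfb, 6 were higher, with Etv5 at 39.2 CPM in cDC2 and 6.31 CPM in cDC1 (2.63, edgeR adjusted p = 6.39e-10). Of 9 paralogues and competitors, 4 were higher and 1 lower. Runx3, the RUNX paralogue, held 155 CPM in cDC2 and 63.1 CPM in cDC1 (1.29, edgeR adjusted p = 1.42e-09). Of 20 corepressor genes, 8 were higher and 2 lower, with Mta2 at 402 CPM in cDC2 and 250.1 CPM in cDC1 (0.68, edgeR adjusted p = 5.17e-09) and Lmo2, an adaptor that joins complexes with Cbfa2t3, at 109 CPM in cDC2 and 58.7 CPM in cDC1 (0.89, edgeR adjusted p = 2.23e-08). All 10 genes known as PU.1 targets passed, 7 higher and 3 lower. Of 10 known as BCL6 targets 4 were higher, with Ccnd2 at 83.4 CPM in cDC2 and 11.4 CPM in cDC1 (2.92, edgeR adjusted p = 8.01e-10). Of 19 other dendritic cell regulators, 13 were higher and 5 lower, with Irf8 at 91.8 CPM in cDC2 and 3899 CPM in cDC1 (-5.42, edgeR adjusted p = 6.83e-17). The median log2 fold change was 1.03 over these regulators, 0.724 over the PU.1 targets, 0.425 over the BCL6 targets and 0.341 over the ETS factors and Cbfb. It was 0.154 over the corepressor genes and 0.153 over the paralogues and competitors, against 0.0477 over all tested genes.

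Under the transgene in cDC1, the list genes that passed included known targets of BCL6 and PU.1. Of the 10 BCL6 target genes 2 rose and 1 fell, and those that rose were Prdm1, which encodes the repressor BLIMP1 (14.4 CPM in Cre-positive and 0.613 CPM in Cre-negative cDC1, log2 fold change 4.60, SE 0.60, edgeR adjusted p = 2.08e-05), and Bcl2 (0.63, edgeR adjusted p = 0.0333). Of the 10 PU.1 target genes 4 rose and 1 fell. Csf1r, the M-CSF receptor, held 78 CPM in Cre-positive and 21.4 CPM in Cre-negative cDC1 (1.87, edgeR adjusted p = 2.42e-07), and Cybb, a subunit of the phagocyte oxidase, 49.8 CPM in Cre-positive and 3.63 CPM in Cre-negative cDC1 (3.76, edgeR adjusted p = 3.57e-05). Spic, the ETS factor of red pulp macrophages, held 28, 23.4, 9.27 and 17.3 CPM in Cre-positive and 3.42 and 6.65 CPM in Cre-negative cDC1 (1.96, edgeR adjusted p = 0.0059), and was the 1 of 9 paralogues and competitors to pass. Mta3, a partner of BCL6 in repression, was the 1 of 20 corepressor genes to pass (47.4 CPM in Cre-positive and 59.1 CPM in Cre-negative cDC1, -0.32, edgeR adjusted p = 0.0426). Of the other regulators 2 rose and 5 fell. Of those that rose, 1 was Zeb2, the gene of the transgene itself, so its rise was set by the design. Mycl, known from cDC1, fell, at 587 CPM in Cre-positive and 1046 CPM in Cre-negative cDC1 (-0.83, edgeR adjusted p = 9.63e-05). None of the 16 leucine zipper factors and none of the 11 ETS factors and Cbfb passed, while 3 and 0 of them had an unadjusted p under 0.05 with edgeR. The median log2 fold change was 0.44 over the PU.1 targets, 0.215 over the BCL6 targets, 0.13 over the paralogues and competitors, 0.119 over the leucine zipper factors and 0.0969 over the regulators. It was 0.0358 over the ETS factors and Cbfb and 0.00535 over the corepressor genes, against 0.0152 over all genes, of which 7% passed.

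In cDC2 with the deletion, where 5.21% of all tested genes passed and 17.8% had an unadjusted p under 0.05, Mta3 was the 1 corepressor gene to pass and rose (137 CPM in Cre-positive and 96.4 CPM in Cre-negative cDC2, log2 fold change 0.51, edgeR adjusted p = 0.00215). Of the PU.1 targets 1 rose and 1 fell. Flt3, the receptor that drives dendritic cell growth, held 545 CPM in Cre-positive and 375 CPM in Cre-negative cDC2 (0.54, edgeR adjusted p = 0.00245), and Csf1r 465 CPM in Cre-positive and 866 CPM in Cre-negative cDC2 (-0.90, edgeR adjusted p = 0.000732). The 1 BCL6 target to pass was Cd69, at 154 CPM in Cre-positive and 59.8 CPM in Cre-negative cDC2 (1.36, edgeR adjusted p = 0.0436). Id2 rose and Zeb2, the deleted gene itself, fell among the other regulators, the remaining 17 of which did not pass. None of the leucine zipper factors, of the ETS factors and Cbfb or of the paralogues and competitors passed edgeR's test, and 1 of each list had an unadjusted p under 0.05. The median log2 fold change was 0.295 over the BCL6 targets and -0.166 over the PU.1 targets, and between -0.0809 and 0.0669 over the other lists, against 0.0084 over all genes. In cDC2 with the transgene and in cDC1 with the deletion, none of the 7 lists held a gene that passed edgeR's test, and 1 to 3 and 0 to 3 genes per list had an unadjusted p under 0.05. Over all genes that share was 8.69% in cDC2 with the transgene and 4.81% in cDC1 with the deletion.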

How the data were processed

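RNA from sorted splenic cDC2 and cDC1 was amplified and sequenced in 24 libraries. The submitters' processing notes name TopHat2 2.1.0, SAMtools 0.1.18, Trimmomatic 0.35, FastQC 0.11.4 and the build mm10. The files deposited by the authors hold raw integer counts per gene symbol, one file per library. How reads were assigned to genes (program, annotation, strand) is not given in the sources used here. Reads in no feature (10.43 to 15.68%) and ambiguous reads (0.9702 to 1.086%) were left out of totals and tests.

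The tests used edgeR 4.0.16 and limma 3.58.1 under R 4.3.3. Genes were kept by filterByExpr (minimum count 10, minimum total 15) and scaled by TMM (factors 0.9245 to 1.074), and edgeR's quasi-likelihood fit took all 24 libraries with 1 mean for each of the 8 groups, with Benjamini-Hochberg adjustment over all 13166 genes and a threshold of 0.05. The comparisons share libraries: the 4 control groups enter both the subset comparison and the Cre comparisons. No replicate pair was close enough to be a repeat of 1 library (chi-square per gene between 10.11 and 51.1). DESeq2 1.42.0 and its size factors, no filter, a filter of 5 CPM in 4 libraries, the compared libraries alone, a replicate block and leaving out each library were alternatives. The procedure was tested on simulated counts. Intervals are at 95%.

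The genes, the lists and the tests were chosen with earlier results of these data known. The named genes are the 10 genes throughout, up to 2 passing genes of each list with the smallest p in each comparison, the 2 genes nearest in pattern, and markers of cell types that move with a gene. Spic, Tef, Dbp, Irf8 and Ms4a1 were shown by library because of this rule or as known competitors and markers. Gene positions and exon lengths are from GENCODE vM21 on mm10, and promoter windows from RefSeq.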

Additional observations from a re-analysis of the deposited data

Results flagged for a closer look

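In groups of 4 libraries, a library stood apart from the other 3 in 5 of 40 cases, by the gap to its nearest neighbour as a share of the group's range on the log2 CPM scale (Dixon's ratio). Chance gives about 1 in 20. Batf was low in replicate 3 of the transgene line's Cre-positive cDC1 (18.4 CPM, ratio 0.916), and high in Cre-positive cDC1 of the deletion line, replicate 4 (21.4 CPM, ratio 0.902). Runx2 was low in that same deletion library (7.11 CPM, ratio 0.847). In the transgene line's Cre-positive cDC2, replicate 4 was low for Bcl11a (228 CPM, ratio 0.903) and for Zbtb46 (144 CPM, ratio 0.851). Without replicate 3 the Batf call under the transgene in cDC1 stood (log2 fold change 0.79, edgeR adjusted p = 0.00415).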

How the results depend on the processing

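The 8 calls between control subsets and the 2 under the transgene in cDC1 were the same with DESeq2 and with DESeq2 size factors by count. Between control subsets, 5 of the 10 genes passed with controls of the deletion line alone, 4 with those of the transgene line alone, and 5 to 7 on leaving out single libraries. Under the transgene in cDC1, 1 passed in a fit of the compared libraries, 1 without both Cre-positive replicates 1 and 2 (an alternative chosen after seeing the data), and 0 to 3 on leaving out single libraries. On leaving out single libraries, 0 to 1 passed in cDC2 with the deletion and 0 to 1 in the difference of the transgene effects. In that difference 2 passed with DESeq2 and 1, Bcl6, with the compared libraries alone. In controls of the 2 lines in cDC2, 1 passed with the compared libraries alone.

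Between control subsets the count over all genes was 7035, and it was lower with the controls of either line alone. Counts over all genes moved by more than 1.5 times in the following cases. In cDC1 with the transgene the count was 922, 550 in the compared libraries alone, and 476 to 983 on leaving out single libraries. In cDC2 with the transgene it was 43, 119 with DESeq2, 71 with no filter, and 18 to 45. In cDC1 with the deletion it was 3, 7 with DESeq2, 1 in the compared libraries alone, and 1 to 4. In cDC2 with the deletion it was 686, and 142 to 673. The difference of the transgene effects gave 264, 475 with DESeq2 and 138 to 335, and that of the deletion effects 142, 336 with DESeq2 and 21 to 161. Controls of the 2 lines gave 17 in cDC1, 53 with DESeq2, 6 in the compared libraries alone and 8 to 12, and in cDC2 18, 70 with DESeq2, 30 with no filter, 85 in the compared libraries alone and 9 to 12. The cause of these shifts was not tested.

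Replicate numbers were checked as a pairing by the correlation of same-numbered libraries in their deviations from group means. Between cDC2 and cDC1 it was 0.0764 to 0.17 for Cre-positive pairs and -0.00779 and 0.0352 for control pairs (log2 CPM, prior count 2), and 0.0566 to 0.132 for Cre-positive pairs and 0.0192 and 0.00293 for control pairs when the prior count was 0.5. Not every pair was over 0.1, the cut set for pairing, so the main fit treated the libraries as unpaired. That cut cannot tell whether libraries with the same number share a source, and the correlations of all Cre-positive pairs were positive. With the replicate block the difference of the transgene effects gave 400 calls, 2 of them among the 10 genes (Zbtb46, adjusted p = 0.0348, and Bcl6, adjusted p = 0.0133), and controls of the 2 lines in cDC2 gave 32.

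Directions turned for the following log2 fold changes, none of which passed. Nfil3 was -0.28 between subsets in the controls of the transgene line alone, and without Cre-positive replicates 3 and 4 of cDC1 with the transgene Nfil3 was -0.19 and Spib 0.24. On leaving out single libraries, ranges crossed 0 as follows. Between control subsets, Nfil3 ran from -0.14 to 0.26. In cDC1 with the transgene, Batf3 ran from -0.28 to 0.0932, Cbfa2t3 from -0.60 to 0.31, Nfil3 from -0.12 to 0.68 and Spi1 from -0.14 to 0.30. In cDC2 with the transgene, Bcl11a ran from -0.0917 to 0.20, Cbfa2t3 from -0.37 to 0.12, Spib from -0.0697 to 0.17 and Zbtb46 from -0.21 to 0.0452. In cDC1 with the deletion, Batf3 ran from -0.0101 to 0.14, Bcl11a from -0.13 to 0.16, Bcl6 from -0.15 to 0.35, Runx2 from -0.0965 to 0.92 and Zbtb46 from -0.0267 to 0.17. Bcl11a ran from -0.0778 to 0.21 between the control cDC2 of the 2 lines. With 2 controls a group, small changes were not detectable, and intervals and floors cover these libraries only.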
